A study of Mus musculus with 10 samples.

Results

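The forkhead (Fox) genes encode transcription factors, and 41 of them are described here: every protein-coding gene of the expression table with a name of the Fox series, leaving out the liver and gut pioneer factors Foxa1, Foxa2 and Foxa3 and the proliferation factor Foxm1. They were chosen by name alone, from 56748 genes in the table, of which 21970 were protein coding. Bulk RNA sequencing covered 10 mouse tumours labelled stomach, 5 of an inflamed type and 5 of a desert type, with 1 library per tumour. The inflamed tumours had the genotype Tff1-CreERT2;Apcfl/fl;Trp53fl/fl with genetic mutation given as treatment, so a tamoxifen-inducible Cre under the promoter of Tff1, a gastric surface cell gene, was combined with floxed Apc and Trp53. The desert tumours had wild type as genotype and an orthotopic allograft as model. Whether wild type refers to the host or to the grafted cells, how old the animals were and whether any tumours shared an animal is not stated in the sources at hand. The p-values therefore measure the spread between these tumours. Tumour type, genotype and mode of tumour formation coincided and cannot be told apart.

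Forkhead proteins share a DNA-binding domain of the winged-helix fold, in which the so-called recognition helix lies in the major groove. FOXF1, FOXF2 and FOXL1 are factors of the mesenchyme around the gut tube, where they act downstream of Hedgehog signals from the epithelium, and FOXC1 and FOXC2 act in paraxial mesoderm, skeletal precursors and blood and lymphatic vessels. FOXQ1 is a factor of surface mucous cells in the stomach, the FOXO proteins are kept out of the nucleus by insulin and AKT signalling, and FOXP3 defines regulatory T cells.

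The 6 forkhead genes that lie in 2 clusters are, in chromosome order, Foxf1, Foxc2 and Foxl1 on chromosome 8 and Foxq1, Foxf2 and Foxc1 on chromosome 13. In each, the FOXC gene fell and the others rose. How alike the 6 genes are is shown by the stretch of 45 coding bases over the recognition helix in the GENCODE M21 transcripts, printed 5′ to 3′ with capitals at each base that differs from Foxf1.
Foxf1: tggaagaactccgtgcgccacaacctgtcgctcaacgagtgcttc
Foxf2: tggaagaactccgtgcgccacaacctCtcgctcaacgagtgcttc
Foxc2: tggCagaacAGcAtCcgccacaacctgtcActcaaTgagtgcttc
Foxc1: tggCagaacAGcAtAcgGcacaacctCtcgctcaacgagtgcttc
Foxl1: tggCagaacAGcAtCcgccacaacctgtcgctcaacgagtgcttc
Foxq1: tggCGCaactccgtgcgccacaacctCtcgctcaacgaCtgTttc
Foxf2 differed from Foxf1 at 1 base, Foxl1 at 5, Foxq1 at 6 and Foxc1 and Foxc2 at 7 each. Over whole transcripts, the longest identical run was 41 bases between Foxf1 and Foxf2 and 53 bases between Foxc1 and Foxc2. Of 780 pairs among the 40 members with a transcript, 2 shared a run of 50 bases or more, the other pair being Foxd3 and Foxd4 with 68 bases. The counting of reads that match both genes of such a pair is not described in the sources at hand.

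Promoter sequence (250 bases before to 50 after the start, RefSeq, GRCm38.p6) was at hand for 25 of the 41 genes. Those of Foxf2 (chr13:31625566-31625865, plus strand) and Foxc1 (chr13:31806396-31806695, plus strand) are shown because these neighbours in 1 cluster moved in opposite directions; capitals mark CG dinucleotides.
Foxf2: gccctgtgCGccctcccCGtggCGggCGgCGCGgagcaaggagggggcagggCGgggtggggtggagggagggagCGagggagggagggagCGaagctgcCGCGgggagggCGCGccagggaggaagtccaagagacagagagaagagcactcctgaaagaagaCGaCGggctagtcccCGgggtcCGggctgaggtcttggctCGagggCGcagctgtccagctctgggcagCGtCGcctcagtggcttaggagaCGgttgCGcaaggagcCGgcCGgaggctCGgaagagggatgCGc
Foxc1: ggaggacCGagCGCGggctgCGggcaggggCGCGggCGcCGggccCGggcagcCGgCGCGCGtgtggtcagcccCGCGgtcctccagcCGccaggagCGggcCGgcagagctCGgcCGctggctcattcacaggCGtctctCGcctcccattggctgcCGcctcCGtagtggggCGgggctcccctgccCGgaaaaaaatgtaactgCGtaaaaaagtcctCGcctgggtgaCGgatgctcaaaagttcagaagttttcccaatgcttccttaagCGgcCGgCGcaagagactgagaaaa
The Foxf2 window held 27 CG dinucleotides at 71.33% GC, and the Foxc1 window held 32 at 67.33% GC. Among the 25 forkhead promoters the median was 22 CG dinucleotides and 63% GC, against 7 and 52.667% over the promoters of 27025 genes. A forkhead site, searched as GTAAACA or TGTTTAC, was in 0 of the 25 windows and in 959 (3.549%) of all. No match says only that these letters are not in these windows.

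Read depth in genes was 15474313 to 15975770 in inflamed libraries and 14148147 to 16951640 in desert tumours. Expression was deposited as FPKM, reads per length of gene and size of library. Each gene was tested on log2(FPKM + 1) with limma, and a gene passed at a Benjamini-Hochberg adjusted p under 0.05 over all 16750 genes with a mean of at least 0.5 FPKM; the added 1 makes differences of low genes appear smaller. In bulk tumours, fewer cells of a type and less RNA per cell cannot be told apart. The labelled tissue was checked with 10 stomach markers. Their FPKM summed to 9948 to 44295 in inflamed tumours, against 28.6 to 59.1 in desert tumours. Of the 10, 8 were higher in inflamed tumours and none was at 0 in every desert tumour. Most of the desert sum was Muc6 (21.3 ± 12.4 FPKM) and Atp4a (10.7 ± 5.55 FPKM; SD, n = 5). The next highest there, Gkn3, averaged 2.35 FPKM, and Tff1 was above 0 in desert tumour 4 alone, at 0.0748 FPKM.

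On the FPKM scale, the summed forkhead expression overlapped between the tumour types, while its make-up differed. The FPKM of all genes summed to 280795 to 356133 in inflamed tumours and 236901 to 269525 in desert tumours. Relative to these totals, the forkhead sum was higher in every desert tumour than in any inflamed tumour. The 41 genes together reached 131.0 to 173.6 FPKM (mean 152 ± 15.5, SD, n = 5) in inflamed tumours and 151.7 to 200.1 FPKM (173 ± 17.5, SD, n = 5) in desert tumours, with overlapping ranges. Of this sum, FOXF genes held 8.47% ± 1.28 in inflamed and 0.204% ± 0.110 in desert tumours. FOXQ1 held 20.3% ± 5.51 in inflamed and 5.78% ± 2.16 in desert tumours. The balance lay with FOXC genes, at 2.99% ± 0.798 in inflamed and 18.7% ± 1.11 in desert tumours, and with FOXO genes, at 13.5% ± 0.929 in inflamed and 21.9% ± 1.35 in desert tumours (SD, n = 5 each). Shares of the FOXF, FOXQ, FOXC and FOXO genes did not overlap between the types in any tumour. FOXP genes held 24.5% ± 1.09 in inflamed and 19.7% ± 1.72 in desert tumours, also without overlap.

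**Figure D1:**
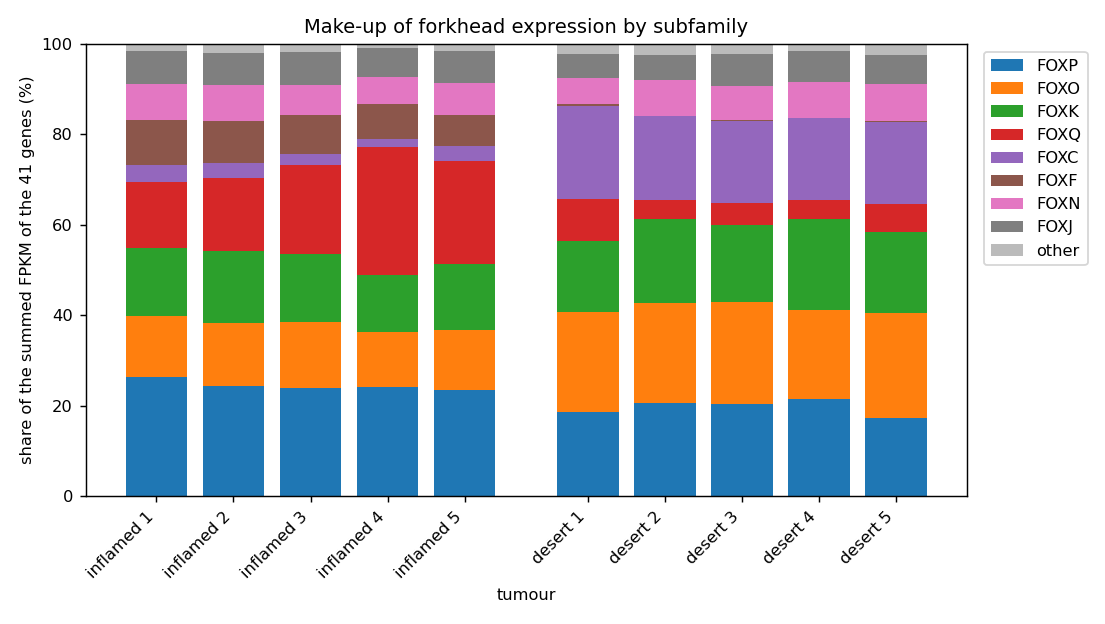
Share of the summed FPKM of the 41 forkhead genes (%, y axis) by subfamily in each of the 10 tumours (x axis); each bar is 1 tumour and adds to 100. FOXC genes (purple) averaged 2.99% in inflamed and 18.7% in desert tumours, and FOXF genes (brown) 8.47% in inflamed and 0.204% in desert tumours.

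Of the 41 genes, 19 reached the filter and were tested. Of these, 6 (31.6%) rose in inflamed tumours, beside 31% of all tested genes, and 8 (42.1%) fell, beside 31.2% of all tested genes; 5 did not pass. In either direction, 14 of 19 (73.7%) passed, beside 62.2% of all. The groups did not overlap for 4 of the genes with inflamed tumours higher and for 7 with desert tumours higher, beside 24.4% of all tested genes in each direction. The median size of the log2 difference was 0.68 over the 19 forkhead genes and 0.50 over all tested genes. Another 22 members averaged under 0.5 FPKM, and 12 members averaged at least 5 FPKM in one type or the other.

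**Figure D2:**
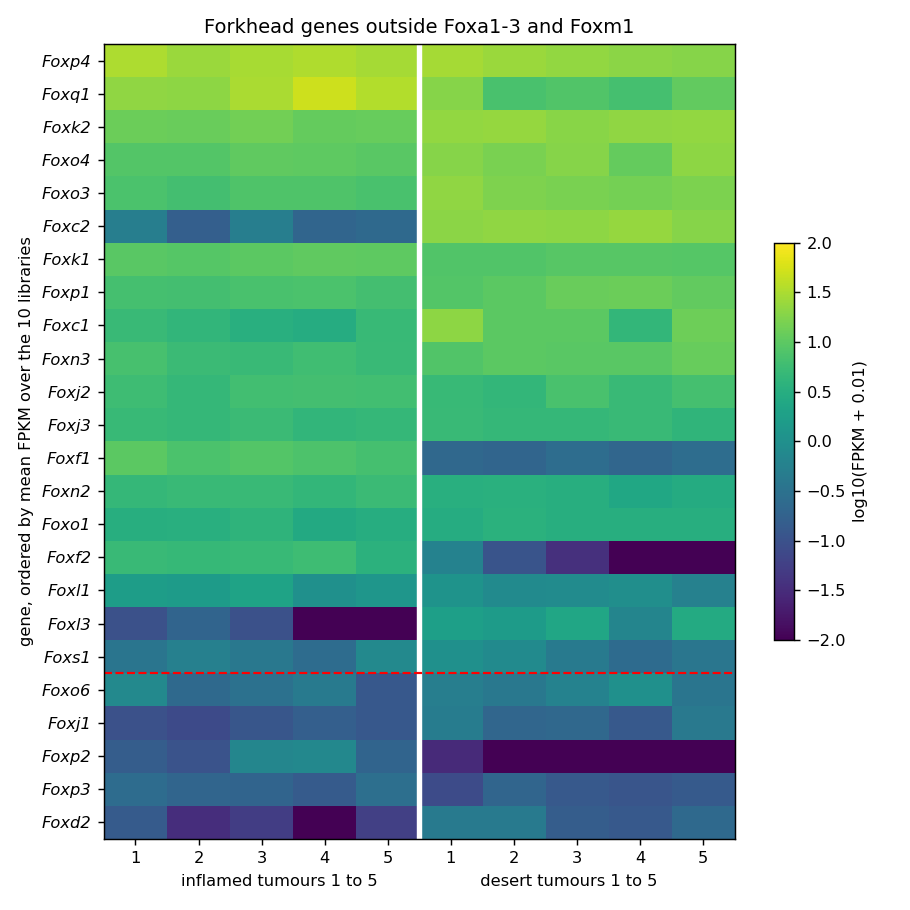
Level of the 24 forkhead genes with a mean of at least 0.1 FPKM (rows, ordered by mean FPKM over all libraries) in each tumour (columns, inflamed left of the white line, desert right of it), coloured by log10(FPKM + 0.01). The 19 genes above the dashed line averaged at least 0.5 FPKM and were tested; Foxf1 and Foxf2 are bright in inflamed columns and dark in desert columns, and Foxc2 and Foxl3 the reverse.

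Foxf1, the FOXF factor needed for visceral mesoderm and smooth muscle of the gut, rose with the largest difference of the higher members. It had 9.76, 7.30, 8.38, 7.64 and 6.55 FPKM in inflamed tumours 1 to 5, against 0.216, 0.195, 0.257, 0.196 and 0.262 FPKM in desert tumours 1 to 5. The lowest inflamed tumour stood far above the highest desert tumour, and the ratio of the means was 35.2. The log2 difference of Foxf1 was 2.86 (SE 0.11, limma adjusted p = 5.93e-09, n = 5 each), on 259 to 415 reads per inflamed and 8 to 12 reads per desert library. Foxf2, its paralogue in intestinal fibroblasts and palate mesenchyme, had 5.07, 4.77, 5.03, 5.62 and 3.77 FPKM in inflamed tumours 1 to 5, against 0.579, 0.0996, 0.0263, 0 and 0 FPKM in desert tumours 1 to 5. Every inflamed tumour was above every desert tumour, and desert tumour 1 was the highest of its type, with 21 reads, against 4, 1, 0 and 0 reads in the others. The log2 difference was 2.37 (SE 0.15, limma adjusted p = 2.66e-07).

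Foxl1, which marks subepithelial mesenchymal cells that support gut stem cells, rose by little. In inflamed tumours 1 to 5 it had 1.68, 1.58, 2.05, 1.02 and 1.24 FPKM, against 1.11, 0.805, 0.827, 0.933 and 0.565 FPKM in desert tumours 1 to 5. Inflamed tumour 4 lay below desert tumour 1, so the groups overlapped. The log2 difference was 0.44 (SE 0.13, limma adjusted p = 0.0151), and it no longer passed on the TPM scale (0.43, limma adjusted p = 0.129) and after quantile normalization (0.27, limma adjusted p = 0.0967).

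Markers of smooth muscle and fibroblasts were read beside these genes, where 31% of all tested genes were higher. Of 6 smooth muscle markers 5 were higher in inflamed tumours, and their summed FPKM was 71.9 to 798 in inflamed tumours, against 7.49 to 40.6 in desert tumours. Of 6 fibroblast markers, 2 were higher and none lower, with sums of 91.1 to 271 in inflamed tumours, against 58.2 to 125 in desert tumours. No smooth muscle or fibroblast marker was at 0 throughout either type. Among inflamed tumours, the smooth muscle sum and Foxf2 were highest in tumour 4 and Foxf1 in tumour 1, and all of them were lowest in tumour 5. Their part in the FOXF result was not tested.

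Of 19 genes of Hedgehog and BMP signalling in the gut mesenchyme, 17 were tested, 11 rose, 4 fell and 2 did not pass, with a median log2 difference of 1.18, against -0.01 over all tested genes. Beside these counts, 31% of all tested genes rose and 31.2% fell. Ihh, a Hedgehog ligand of the gut epithelium, averaged 16 ± 4.21 FPKM in inflamed tumours, against 0.146 ± 0.0733 FPKM in desert tumours (a log2 difference of 3.86, limma adjusted p = 8.43e-09). Grem1, a secreted BMP antagonist, averaged 12.5 ± 6.6 FPKM in inflamed tumours, against 0.0117 ± 0.0160 FPKM in desert tumours (a log2 difference of 3.56, limma adjusted p = 5.16e-06). Bmp7, a BMP ligand, fell to 10.1 ± 2.10 FPKM in inflamed tumours, against 55.9 ± 15.2 FPKM in desert tumours (a log2 difference of -2.33, limma adjusted p = 3.05e-06; SD, n = 5 each). The signal transducer Smo was at 8.40 ± 1.06 FPKM in inflamed tumours, against 11 ± 1.92 FPKM in desert tumours (a log2 difference of -0.35, limma adjusted p = 0.0303), a call lost in 9 of the alternatives. Leaving out any 1 of inflamed tumours 4 and 5 and desert tumours 2 and 3 gave 2 genes that fell, and leaving out desert tumour 4 gave 1. The Hedgehog readout Gli1 did not pass (0.987 ± 0.273 FPKM in inflamed, 0.802 ± 0.220 FPKM in desert tumours), while Hhip, another Hedgehog target, averaged 1.012 ± 0.442 FPKM in inflamed tumours, against 0.00116 ± 0.00260 FPKM in desert tumours.

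Foxc2, a factor of mesenchymal condensation and lymphatic valves, fell by the largest amount of all 19 tested members. It had 0.5, 0.152, 0.504, 0.193 and 0.224 FPKM in inflamed tumours 1 to 5, against 20.2, 21.3, 21.1, 22.9 and 18.5 FPKM in desert tumours 1 to 5. The types were far apart, the mean being 66.1-fold lower in inflamed tumours, and the desert tumours varied little among themselves. The log2 difference was -4.06 (SE 0.10, limma adjusted p = 4.59e-10), on 7 to 24 reads per inflamed and 845 to 1187 reads per desert library. Its paralogue Foxc1 had 5.08, 4.27, 3.39, 3.04 and 4.95 FPKM in inflamed tumours 1 to 5, against 21.2, 9.82, 9.97, 4.51 and 13.2 FPKM in desert tumours 1 to 5. Desert tumour 4 lay within the inflamed range and desert tumour 1 was the highest. Foxc1 fell by 1.19 on the log2 scale (SE 0.30, limma adjusted p = 0.00564).

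The 2 FOXC genes also differed in level, on the FPKM scale. Foxc1 was the higher in every inflamed tumour, at a mean of 4.15 ± 0.916 FPKM beside 0.315 ± 0.173 FPKM for Foxc2. Foxc2 was the higher in desert tumours 2 to 5, at a mean of 20.8 ± 1.62 FPKM over the desert tumours beside 11.7 ± 6.13 FPKM for Foxc1 (SD, n = 5). Cartilage markers moved with them: all 4 of the tested ones among 6 were lower in inflamed tumours, and the 6 summed to 51.1 to 68.1 FPKM in inflamed and 363 to 566 FPKM in desert tumours. Of all tested genes, 31% were higher and 31.2% lower. Most of the inflamed cartilage sum was Sox9, at 54.8 ± 7.15 FPKM in inflamed tumours, against 152 ± 12.7 FPKM in desert tumours. Comp, a cartilage matrix protein, averaged 0.903 ± 0.169 FPKM in inflamed tumours, against 217 ± 53.1 FPKM in desert tumours, and Col2a1, the main cartilage collagen, averaged 0.0117 ± 0.00530 FPKM in inflamed tumours, against 65.9 ± 57.5 FPKM in desert tumours. Acan and Matn1, of the same list, were below the filter in both types and did not share this fall clearly. Acan averaged 0.0873 FPKM in inflamed tumours, against 0.0227 FPKM in desert tumours. Matn1 averaged 0.0119 FPKM in inflamed tumours, against 0.0183 FPKM in desert tumours. Of 6 endothelial markers 3 were higher in inflamed tumours and none lower (sums 15.2 to 38.1 in inflamed, 11.9 to 17.2 in desert tumours). Of 6 pericyte markers, 2 were higher and 1, Kcnj8, was lower. The summed pericyte FPKM leaned the other way from this count. Inflamed tumours had sums of 32.7 to 57.5, and the desert type reached 55.7 to 121, so the ranges overlapped slightly. Kcnj8 averaged 5.75 ± 2.11 FPKM in inflamed tumours, against 57.9 ± 22.3 FPKM in desert tumours. The part of cartilage cells, endothelial cells and pericytes in the FOXC result was not tested.

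**Figure D3:**
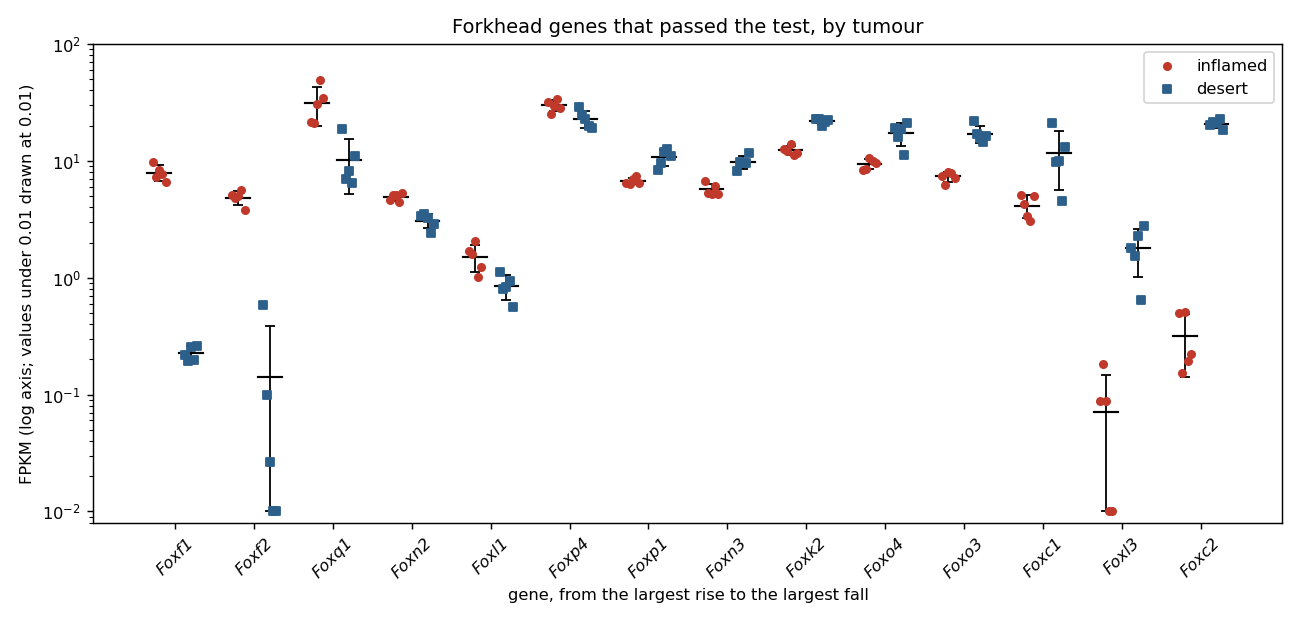
FPKM (log axis, values under 0.01 drawn at 0.01) of the 14 forkhead genes that passed the test in each inflamed (red circles) and desert (blue squares) tumour, with mean (long bar) and SD (short bars). The Foxf1, Foxf2, Foxl3 and Foxc2 groups lie far apart, while those of Foxl1, Foxp4 and Foxc1 overlap.

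In each cluster the FOXC gene fell and the other forkhead genes rose. In the table's coordinates, whose build could not be matched to the given annotation, Foxf1 (ENSMUSG00000042812) lay at 121811125 to 121814883 on chromosome 8, Foxc2 (ENSMUSG00000046714) at 121842910 to 121845634, a gap of 28027 bases, and Foxl1 (ENSMUSG00000097084) at 121854679 to 121857383, a further 9045 bases on. Foxf1 rose by 2.86 and Foxl1 by 0.44, while Foxc2 between them fell by 4.06 on the log2 scale. The ratio of Foxf1 to Foxc2 in FPKM was 16.6 to 47.9 in inflamed tumours, against 0.00856 to 0.0142 in desert tumours. On chromosome 13, Foxq1 (ENSMUSG00000038415) lay at 31740117 to 31744959, Foxf2 (ENSMUSG00000038402) at 31809799 to 31815386 after a gap of 64840 bases, and Foxc1 (ENSMUSG00000050295) at 31990616 to 31996459 after a gap of 175230 bases. Foxq1 and Foxf2 rose, and Foxc1 fell. The ratio of Foxf2 to Foxc1 was 0.762 to 1.85 in inflamed tumours, against 0 to 0.0273 in desert tumours.

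Other genes within 500 kb were counted beside them. Around the chromosome 8 cluster 12 other genes averaged at least 0.5 FPKM, 3 rose, 2 fell and 7 did not pass, with a median log2 difference of -0.13. For either cluster the shares to compare are the 31% of all tested genes that rose and the 31.2% that fell. Fendrr, a long non-coding RNA that lies 1276 bases from Foxf1 on the opposite strand and is known from mouse lateral mesoderm, had 3.93, 4.25, 6.73, 6.76 and 2.50 FPKM in inflamed tumours 1 to 5, against 0.118, 0.159, 0.0374, 0.0633 and 0.0317 FPKM in desert tumours 1 to 5. Fendrr rose by 2.37 on the log2 scale (SE 0.20, limma adjusted p = 2.79e-06) with no overlap, and Mthfsd, 3484 bases to the other side of Foxf1, did not pass (log2 difference -0.08, limma adjusted p = 0.598). The sources used here do not say whether strand was kept, and reads of facing genes this close cannot be told apart where they overlap. Around the chromosome 13 cluster 5 other genes were tested, of which 4 rose and 1 fell. Gmds, a GDP-mannose dehydratase of fucose synthesis beside Foxc1, averaged 65.5 ± 12.3 FPKM in inflamed tumours, against 10.9 ± 4.62 FPKM in the desert type (SD, n = 5 each; log2 difference 2.54, limma adjusted p = 5.27e-06). The non-coding Gm11379, also beside Foxc1, had 5.96, 3.12, 1.5, 1.90 and 3.21 FPKM in inflamed tumours, against 28.9, 19.5, 15.7, 3.59 and 18.3 FPKM in desert tumours (a log2 difference of -2, limma adjusted p = 0.00284). Like Foxc1, it was highest in desert tumour 1 and lowest in desert tumour 4 among desert tumours.

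**Figure D4:**
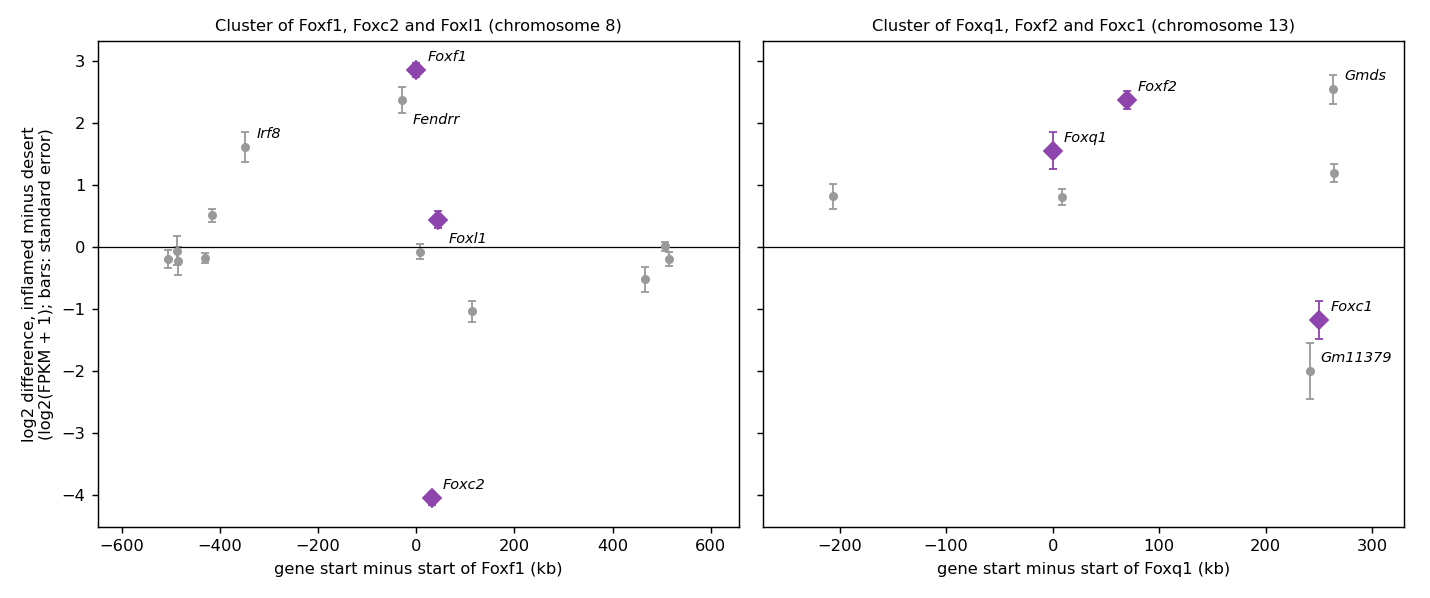
Log2 difference, inflamed minus desert, on log2(FPKM + 1) (y axis, bars are standard errors) against the distance of each gene's start from that of Foxf1 (left) or Foxq1 (right) in kb (x axis). Purple diamonds are forkhead genes and grey circles other genes. Left, Foxf1 has 2.86 at 0 kb and Foxc2 has -4.06 at 31.8 kb. Right, Foxf2 has 2.37 at 69.7 kb and Foxc1 has -1.19 at 250.5 kb.

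Foxq1, the surface mucous cell factor, rose. It had 21.4, 21.1, 30.8, 49.2 and 34.4 FPKM in inflamed tumours 1 to 5, against 18.7, 7, 8.13, 6.49 and 11 FPKM in desert tumours 1 to 5. All inflamed tumours were above all desert tumours, though inflamed tumours 1 and 2 were close to desert tumour 1. The log2 difference was 1.55 (SE 0.30, limma adjusted p = 0.000868), and the means were 31.4 ± 11.5 FPKM in inflamed tumours, against 10.3 ± 5.02 FPKM in desert tumours. Of 11 pit cell genes, 10 rose (beside 31% of all tested genes), none fell and 1 did not pass, with a median log2 difference of 4.55. That gene was Tff1, whose promoter drives the Cre (limma adjusted p = 0.0783). Inflamed tumour 4 had 37.8 FPKM of Tff1, the other inflamed tumours had 0.242 to 1.56 FPKM, and it was listed at 0 in all desert tumours but tumour 4, which had 0.0748 FPKM. Gkn2, a secreted gastrokine, averaged 5770 ± 7228 FPKM in inflamed tumours, against 0.790 ± 1.73 FPKM in desert tumours (a log2 difference of 11.18, limma adjusted p = 5.55e-07). The related Gkn1 averaged 3665 ± 4642 FPKM in inflamed tumours, against 0.743 ± 1.29 FPKM in desert tumours (a log2 difference of 10.42, limma adjusted p = 7.23e-07; SD, n = 5 each). Muc5ac, the surface mucin that depends on Foxq1 in mouse stomach, had 17.5, 3.90, 54.7, 281 and 160.0 FPKM in inflamed tumours 1 to 5, against 1.90, 0.203, 3.40, 0.215 and 2.32 FPKM in desert tumours 1 to 5 (a log2 difference of 4.36, limma adjusted p = 0.00240). Inflamed tumour 4 was the highest for Foxq1, Muc5ac, Gkn1 and Gkn2 alike. Of 6 epithelial markers 4 were higher in inflamed tumours and none lower (sums 3317 to 6318 in inflamed, 1523 to 2227 FPKM in desert tumours), and their part in the Foxq1 result was not tested.

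Foxo3 and Foxo4, which switch on stress resistance, cell cycle arrest and apoptosis genes when AKT signalling is low, fell, and Foxo1 did not pass. Foxo3 had 7.44, 6.26, 8.04, 7.94 and 7.08 FPKM in inflamed tumours 1 to 5, against 22, 17.0, 15.5, 14.6 and 16.2 FPKM in desert tumours 1 to 5 (a log2 difference of -1.10, SE 0.11, limma adjusted p = 8.85e-06). Foxo4 had 8.37, 8.48, 10.6, 10.01 and 9.59 FPKM in inflamed tumours 1 to 5, against 19.0, 15.9, 18.8, 11.1 and 21.2 FPKM in desert tumours 1 to 5 (a log2 difference of -0.78, SE 0.15, limma adjusted p = 0.000954). Both were lower in every inflamed tumour than in any desert tumour, with desert tumour 4 close to the inflamed range for Foxo4. Foxo1, the main FOXO factor of insulin response, had 3.24, 3.36, 4.01, 2.65 and 3.10 FPKM in inflamed tumours 1 to 5, against 2.97, 3.57, 3.19, 3.17 and 3.21 FPKM in desert tumours 1 to 5. The groups overlapped throughout (log2 difference 0.01, limma 95% interval -0.20 to 0.23, limma adjusted p = 0.928). The ratio of Foxo3 to Foxo1 was 1.86 to 2.99 in inflamed tumours, against 4.61 to 7.39 in desert tumours. Foxo6, mainly a brain gene, stayed below the filter at 0.117 to 0.760 FPKM in inflamed and 0.343 to 1.03 FPKM in desert tumours.

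The genes that control FOXO proteins all passed the test: of 17, 5 rose and 12 fell, with a median log2 difference of -0.36. Of all tested genes, 31% rose and 31.2% fell. Akt1, a kinase that phosphorylates FOXO proteins, averaged 87.6 ± 4.41 FPKM in inflamed tumours, against 68.6 ± 4.98 FPKM in desert tumours (a log2 difference of 0.35, limma adjusted p = 0.00272). Akt1 did not pass on the TPM scale (0.05, limma adjusted p = 0.618) or with quantile normalization (0.20, limma adjusted p = 0.05004, just above the threshold). Its relative Akt2 went the other way and was among the genes that fell. It averaged 14.6 ± 0.623 FPKM in inflamed tumours, against 35.5 ± 3.36 FPKM in desert tumours, with no overlap. The insulin receptor substrate Irs2, itself known as a FOXO target in liver, averaged 5.13 ± 1.19 FPKM in inflamed tumours, against 20.6 ± 4.11 FPKM in desert tumours (a log2 difference of -1.81, limma adjusted p = 3.72e-06). Usp7, which removes ubiquitin from FOXO4, averaged 24.7 ± 0.636 FPKM in inflamed tumours, against 31.5 ± 1.41 FPKM in desert tumours (a log2 difference of -0.34, limma adjusted p = 0.000913; SD, n = 5 each). The deacetylase Sirt1 and the acetyltransferases Crebbp and Ep300 were among those that fell.

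FOXO target genes had no common direction. Of 22, 8 rose, 6 fell and 8 did not pass, with a median log2 difference of 0.05. This was near the shares of all tested genes, of which 31% rose and 31.2% fell, with a median of -0.01. Txnip, a regulator of glucose uptake, averaged 145 ± 33.4 FPKM in inflamed tumours, against 24.4 ± 9.67 FPKM in desert tumours (a log2 difference of 2.59, limma adjusted p = 2.34e-05). Cdkn1a, the cell cycle inhibitor p21 and also a p53 target, averaged 29.6 ± 14.8 FPKM in inflamed tumours, against 5.12 ± 3.23 FPKM in desert tumours (a log2 difference of 2.33, limma adjusted p = 0.000189). The mitophagy kinase gene Pink1, at 30.3 ± 5.69 FPKM in inflamed tumours, against 28.9 ± 5.66 FPKM in desert tumours, did not pass (limma adjusted p = 0.723). Those that fell included Bbc3, Cat, Cdkn1b and Sesn3, with apoptotic, antioxidant, cell cycle and stress roles.

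**Figure D5:**
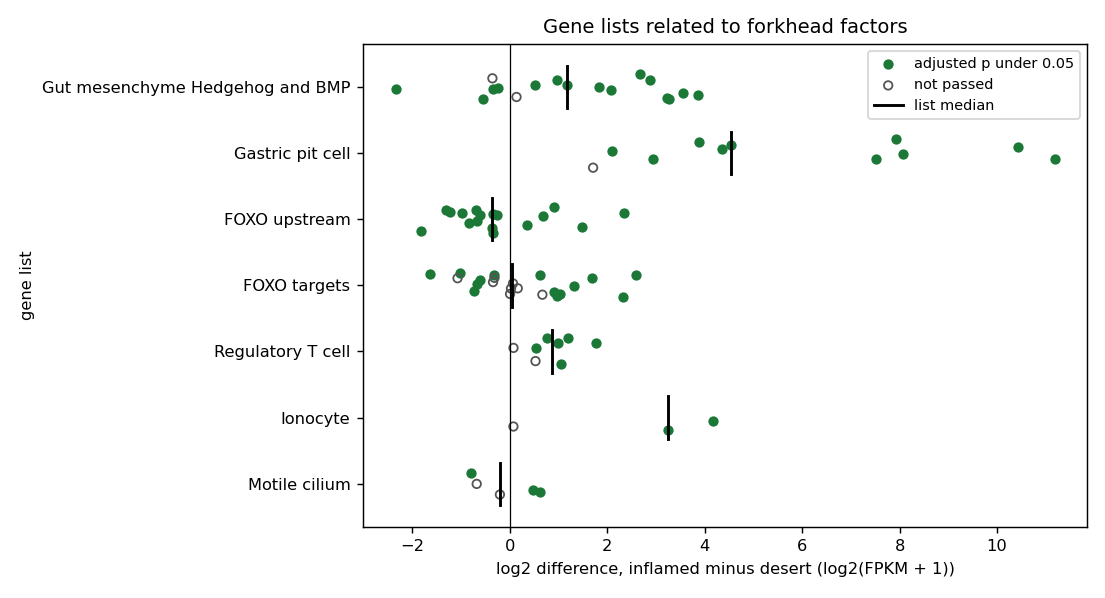
Log2 difference, inflamed minus desert, on log2(FPKM + 1) (x axis) of every tested gene in 7 lists related to forkhead factors (rows). Filled circles passed the adjusted p threshold, open circles did not, and black bars are list medians, which range from -0.36 for genes that control FOXO proteins to 4.55 for pit cell genes.

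Among the FOXP genes, repressors that act in lung, gut, neurons and lymphocytes, Foxp1 fell and Foxp4 rose. Foxp1 had 6.50, 6.37, 7.05, 7.39 and 6.48 FPKM in inflamed tumours 1 to 5, against 8.36, 9.64, 12.0, 12.6 and 11 FPKM in desert tumours 1 to 5, with no overlap (log2 difference -0.58, SE 0.11, limma adjusted p = 0.000623). Foxp4, the forkhead gene of highest mean level over all tumours, had 31.8, 25.3, 29.7, 33.6 and 28.5 FPKM in inflamed tumours 1 to 5, against 28.7, 24.9, 22.6, 19.8 and 19.0 FPKM in desert tumours 1 to 5. Desert tumour 1 lay within the inflamed range. The log2 difference of Foxp4 was 0.37 (SE 0.12, limma adjusted p = 0.0212), and it no longer passed on the TPM scale (0.08, limma adjusted p = 0.560), without desert tumour 4 (0.32, limma adjusted p = 0.0505) and without desert tumour 5 (0.31, limma adjusted p = 0.0524).

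Foxp2 and Foxp3 were below the filter. Foxp2 had 0.142, 0.0944, 0.672, 0.719 and 0.187 FPKM in inflamed tumours 1 to 5, against 0.0199 FPKM in desert tumour 1 and no read in desert tumours 2 to 5; this is 26 to 192 reads in inflamed libraries and 5 in desert tumour 1. With a filter of 0.1 FPKM it passed (log2 difference 0.41, limma adjusted p = 0.0213), as it did in limma voom on reads recovered from the FPKM (limma adjusted p = 0.00113), a fit in which 30% of all genes rose and 33.3% fell. Foxp3 had 0.248, 0.194, 0.187, 0.129 and 0.280 FPKM in inflamed tumours 1 to 5, against 0.0712, 0.193, 0.122, 0.103 and 0.127 FPKM in desert tumours 1 to 5, which is 9 to 21 reads in inflamed and 5 to 15 in desert libraries. The ranges overlapped, and Foxp3 did not pass with a filter of 0.1 FPKM (log2 difference 0.10, limma adjusted p = 0.177) or in limma voom (0.68, limma adjusted p = 0.118). Part of Foxp3 overlaps Ppp1r3f and Ccdc22 on the opposite strand.

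Other genes of the regulatory T cell list were easier to measure, but which cells expressed them was not tested. Of 12, 8 were tested, 6 rose (beside 31% of all tested genes), none fell and 2 did not pass, with a median log2 difference of 0.88. Without inflamed tumour 1 the count that rose was 3 of 7. Tigit, an inhibitory receptor of T and NK cells, averaged 4.15 ± 1.13 FPKM in inflamed tumours, against 0.490 ± 0.253 FPKM in desert tumours (a log2 difference of 1.78, limma adjusted p = 6.51e-06). Ikzf2, which encodes Helios, averaged 1.37 ± 0.322 FPKM in inflamed tumours, against 0.0299 ± 0.0261 FPKM in desert tumours (a log2 difference of 1.19, limma adjusted p = 6.22e-06). The ectonucleotidase gene Entpd1 averaged 4.61 ± 1.71 FPKM in inflamed tumours, against 1.64 ± 0.596 FPKM in desert tumours (a log2 difference of 1.05, limma adjusted p = 0.00451). Tnfrsf18, the gene of GITR, was at 4.24 ± 0.577 FPKM in inflamed tumours, against 3.99 ± 0.785 FPKM in desert tumours and did not pass (limma adjusted p = 0.608). Ctla4 averaged 1.66 ± 1.13 FPKM in inflamed tumours, against 0.726 ± 0.198 FPKM in desert tumours, and did not pass either (limma adjusted p = 0.0983). All 8 T cell markers were higher in inflamed tumours, with sums of 12.7 to 38.7 FPKM in inflamed and 1.003 to 2.02 FPKM in desert tumours, and their part in these differences was not tested. Among inflamed tumours, Ikzf2 was highest in tumour 4 (1.84 FPKM), where Foxp3, Tigit, Entpd1 and the T cell sum were lowest.

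The FOXK, FOXN and FOXJ genes are expressed in most tissues, apart from Foxj1, Foxn1 and Foxn4. Foxk2, which with Foxk1 controls autophagy and glycolysis genes, had 12.6, 12.0, 14.0, 11.3 and 11.8 FPKM in inflamed tumours 1 to 5, against 22.9, 23.0, 19.8, 21.3 and 22.3 FPKM in desert tumours 1 to 5, with no overlap (log2 difference -0.78, SE 0.08, limma adjusted p = 8.34e-06). Foxk1 had 9.39, 8.74, 9.65, 10.6 and 10.2 FPKM in inflamed tumours 1 to 5, against 8.21, 8.31, 8.97, 9.12 and 8.86 FPKM in desert tumours 1 to 5. The Foxk1 ranges overlapped and it did not pass (log2 difference 0.14, limma 95% interval -0.02 to 0.30, limma adjusted p = 0.105).

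Foxn3, a checkpoint repressor, fell, and Foxn2, a close relative, rose. Foxn3 had 6.74, 5.35, 5.19, 6.03 and 5.15 FPKM in inflamed tumours 1 to 5, against 8.14, 9.73, 9.54, 9.63 and 11.6 FPKM in desert tumours 1 to 5 (a log2 difference of -0.68, SE 0.10, limma adjusted p = 0.000162). Foxn2 had 4.65, 5.09, 5.12, 4.45 and 5.28 FPKM in inflamed tumours 1 to 5, against 3.38, 3.48, 3.25, 2.42 and 2.88 FPKM in desert tumours 1 to 5 (a log2 difference of 0.54, SE 0.10, limma adjusted p = 0.000514). Neither gene overlapped between types. Foxj2 had 5.66, 4.62, 6.12, 6.33 and 6.03 FPKM in inflamed tumours 1 to 5, against 4.99, 4.49, 6.97, 5.15 and 6.63 FPKM in desert tumours 1 to 5 and did not pass (log2 difference 0.03, limma adjusted p = 0.836). Foxj3, at 4.79 ± 0.408 FPKM in inflamed tumours, against 4.69 ± 0.419 FPKM in the desert type (SD, n = 5 each), did not pass (limma adjusted p = 0.800).

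Of the remaining tested members, Foxl3, known from germ cells of medaka fish, had 0.0872, 0.182, 0.0879, 0 and 0 FPKM in inflamed tumours 1 to 5, against 1.80, 1.54, 2.29, 0.646 and 2.75 FPKM in desert tumours 1 to 5. No inflamed tumour had over 2 reads, and desert tumours had 8 to 34 (log2 difference -1.34, SE 0.20, limma adjusted p = 0.000147). Foxs1, a gene of pericytes and sensory neurons, was at 0.456 ± 0.193 FPKM in inflamed tumours, against 0.566 ± 0.320 FPKM in desert tumours and did not pass (limma adjusted p = 0.633). Spread within a type was computed where levels allowed: among members averaging at least 1 FPKM in the type, the median coefficient of variation was 11.25% in inflamed tumours (16 genes) and 16.08% in desert tumours (15 genes). Over all genes of that level it was 16.17% in inflamed and 17.48% in desert tumours. It was highest for Foxq1 in inflamed tumours (36.7%) and for Foxc1 in desert tumours (52.3%).

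The other members were at or near the limit of detection. Foxj1, the master factor of motile cilia, had 3 to 6 reads per inflamed and 6 to 20 per desert library, and of 15 motile cilium genes 5 were tested, of which 2 rose, 1 fell (2 without inflamed tumour 4 or desert tumour 5) and 2 did not pass. Among all tested genes 31% rose and 31.2% fell. Rfx3, a cilium gene regulator, averaged 0.884 ± 0.138 FPKM in inflamed tumours, against 2.30 ± 0.518 FPKM in desert tumours (a log2 difference of -0.80, limma adjusted p = 0.000238), and the tubulin polymerization gene Tppp3 averaged 8.40 ± 3.59 FPKM in inflamed tumours, against 13.6 ± 3.60 FPKM in desert tumours (a log2 difference of -0.68, limma adjusted p = 0.0505). Tppp3 passed as lower in 8 of the alternatives, with -1.02 and a limma adjusted p of 0.00658 on the TPM scale. Foxi1, the ionocyte factor, had 1 read in inflamed tumour 1 only, against 0, 4, 0, 3 and 8 reads in desert tumours 1 to 5, and of 9 ionocyte genes 3 were tested. Of these, the chloride channel gene Cftr averaged 41.8 ± 11.6 FPKM in inflamed tumours, against 1.42 ± 0.769 FPKM in desert tumours (a log2 difference of 4.17, limma adjusted p = 2.79e-07), and the proton pump subunit gene Atp6v0d2 averaged 24.1 ± 7.63 FPKM in inflamed tumours, against 1.73 ± 1.30 FPKM in desert tumours (a log2 difference of 3.24, limma adjusted p = 5.38e-06). Both are also expressed outside ionocytes, and the anion exchanger gene Slc26a4, at 3.32 FPKM on average in inflamed tumours, against 3.45 FPKM in desert tumours, did not pass.

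Foxd2, which had 0 to 6 reads per inflamed and 6 to 19 reads per desert library, passed with a filter of 0.1 FPKM (log2 difference -0.27, limma adjusted p = 0.0219). Its neighbour Foxd2os, a non-coding gene on the opposite strand, averaged 0.212 FPKM in inflamed tumours, against 1.03 FPKM in desert tumours (a log2 difference of -0.73, limma adjusted p = 0.000920). With no filter on level, Foxd3 (limma adjusted p = 0.0284) and Foxn4 (limma adjusted p = 0.0425) also passed, on at most 3 reads per library. The thyroid factor Foxe1 had 0, 0, 6, 6 and 4 reads in inflamed tumours 1 to 5 and none in desert tumours. The thymus factor Foxn1 had 10 reads in inflamed tumour 4 and 1 read in desert tumour 1. Foxd1, Foxh1, Foxi3, Foxl2, Foxr1, Foxr2, Foxb1, Foxb2 and Foxd4 had single reads to a handful in some libraries. Foxe3 and Foxi2 had no read in any library, which allows up to 0.227 FPKM for Foxe3 and 0.0742 FPKM for Foxi2 at 3 reads in the library where a read weighs most; this limit covers counting error only.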

How the data were processed

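Total RNA from 5 inflamed and 5 desert tumours was isolated with TRIzol; the labels' protocols speak of 6 tumours, whereas all 10 in the series were used. The authors deposited FPKM values with 1 column per library, together with gene lengths and coordinates. The genome build is mm10 per the submitters' processing notes; the aligner, counter and annotation behind the values are not given in the sources used here. All 41 forkhead genes had the same chromosome and span as in GENCODE M21 but only 1 had the same start, so positions follow the deposited coordinates with no build named. The product of FPKM and length was a whole multiple of a step in each library (100% of values within 0.01), which gave the reads quoted.

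The test was limma 3.58.1 (R 4.3.3, data.table, version 1.17.8) on log2(FPKM + 1), moderated with trend and robust options, two-sided, with group as the only term, on genes with a mean of at least 0.5 FPKM. The threshold was a Benjamini-Hochberg adjusted p of 0.05, and differences are inflamed minus desert. The procedure was tested on simulated data. The alternatives were pseudocounts of 0.1 and 0.01, mean filters of 0, 0.1 and 5 FPKM, TPM, median-of-ratios and quantile scaling, no trend or robust option, array weights, a floor of 2 on the fold change, a block by tumour number, voom on recovered reads (at least 10 on average) and leaving out each tumour.

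The genes, lists and tests were chosen with earlier results of these data known. Values in every tumour are given for members called without overlap, members with a mean of at least 5 FPKM in either type, and Foxp3, Foxq1, Foxf1, Foxf2, Foxl1, Foxo1 and Foxo3. From each related list the 2 tested genes with the largest difference and the 2 with the highest mean level are named. Of these, 1 low forkhead gene and 1 gene of a related list are not reported here. Other named list members, cluster neighbours and low members were chosen after their values were seen. Marker lists of macrophages (1 of 6 higher, none lower) and of Schwann and neural crest cells (1 of 3 tested higher, none lower) were also counted. Whether same-numbered tumours pair was checked from deviations around the group means, and no pairing was seen.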

Additional observations from a re-analysis of the deposited data

Results flagged for a closer look

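Groups of 5 tumours were screened for a single tumour far from the other 4 (Dixon's ratio of the gap to the range), over the forkhead genes with a mean of at least 10 reads, the low forkhead genes, list genes and neighbours given with values, and the marker sums, family sum, subfamily shares and ratios. Of 154 groups 20 were marked; chance marks about 1 in 20 groups, and a gene with reads in a single tumour of a type always has a ratio of 1.

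Desert tumour 1 was set apart in several of them. It was the highest desert tumour for Foxf2 at 0.579 FPKM (ratio 0.828), for the FOXF share at 0.397% (ratio 0.827), for the FOXC share at 20.7% (ratio 0.811) and for the ratio of Foxo3 to Foxo1 at 7.39 (gap ratio 0.848), and the lowest for Gli1 at 0.418 FPKM (ratio 0.771). Desert tumour 1 was also the only desert tumour with reads of Foxp2 and of Foxn1 (ratio 1 each).

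Inflamed tumour 4 was the highest inflamed tumour for Gkn2 at 18300 FPKM (ratio 0.728), for Gkn1 at 11752 FPKM (ratio 0.751) and for Tff1 at 37.8 FPKM (ratio 0.965), and the only one with reads of Foxn1 (ratio 1). Desert tumour 2 was the highest desert tumour for Gkn2 at 3.88 FPKM (ratio 0.983) and for Gkn1 at 3.01 FPKM (ratio 0.810). Desert tumour 3 was set apart for Atp6v0d2 at 3.98 FPKM (ratio 0.765), and inflamed tumour 2 for the summed cartilage markers at 68.1 FPKM (ratio 0.740). Sox9 held 67.1 FPKM of that sum. Inflamed tumour 1 was the only inflamed tumour with a read of Foxi1 (ratio 1) and the highest for Foxn4, with 3 reads (ratio 0.925). Foxd3 and Hhip were listed above 0 in desert tumour 5 alone (ratio 1 each), and Tff1 in desert tumour 4 alone (ratio 1).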

How the results depend on the processing

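The forkhead counts of 6 higher and 8 lower were 5 to 6 higher and 8 to 8 lower when each tumour was left out. They were 2 higher with a mean of at least 5 FPKM (11 tested), and 2 higher and 1 lower with the fold change floor of 2, where Foxf1, Foxf2 and Foxc2 kept their calls. All genes were 2784 higher and 3070 lower with a mean of at least 5 FPKM, 1137 higher and 643 lower with the floor, and 4829 to 5225 higher and 4911 to 5134 lower with each tumour left out. The floor gave 1 higher and 1 lower of the genes that control FOXO proteins, 3 and 0 of FOXO targets, 1 higher of the regulatory T cell genes, 7 and 1 of the gut mesenchyme genes and 0 and 0 of the cilium genes. The regulatory T cell count was 3 to 7 with each tumour left out, 3 without inflamed tumour 1. The gut mesenchyme list had 6 higher and 2 lower with a mean of at least 5 FPKM, 2 lower with no filter, and 1 to 4 lower with each tumour left out, 2 of them without inflamed tumours 4 or 5 or desert tumours 2 or 3, and 1 without desert tumour 4. The cilium list had 4 higher and 2 lower with no filter, 2 lower with 0.1 FPKM, 0 higher with 5 FPKM, 3 lower with TPM, 1 higher and 3 lower with quantile scaling, 2 lower with array weights, 3 lower with voom, and 1 to 2 lower with each tumour left out, 2 without inflamed tumour 4 or desert tumour 5. The causes were not tested. With the tumour number as a block, 6 forkhead genes were higher and 8 lower (all genes 4958 and 4967). The gut mesenchyme list then had 2 lower and the cilium list 2 lower. Deviations of same-numbered tumours correlated at -0.0737 to 0.0763, and only tumour 3 correlated best with its own number. No pairing by number was seen, but correlations over so few tumours cannot exclude a small shared effect. The median of all genes was -0.28 with TPM, where 3769 were higher and 6989 lower (members 4 and 8), and -0.11 with quantile scaling, where 4609 were higher and 6146 lower, against -0.01 in the main setting. Genes that did not pass changed sign: with TPM, Foxj2 (-0.25), Foxj3 (-0.25), Foxo1 (-0.26), Foxk1 (-0.14), Pink1 (-0.23) and Tnfrsf18 (-0.19); with quantile scaling, Foxj2 (-0.011), Foxj3 (-0.017), Foxo1 (-0.068) and Pink1 (-0.014); with voom, Foxj2 (-0.032), Foxj3 (-0.037), Foxo1 (-0.058) and Pink1 (-1.5e-05); with array weights, Foxj2 (-0.056). With each tumour left out, differences ran over -0.033 to 0.101 for Foxj2, -0.013 to 0.055 for Foxj3, -0.048 to 0.066 for Foxo1, -0.018 to 0.151 for Pink1 and -0.0022 to 0.157 for Tnfrsf18. Few reads limit the low members.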

Other observations

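Several forkhead genes and their neighbours shared the tumour in which they were highest. In desert tumours, Foxq1, Foxf2, Foxc1, Gmds, Gm11379 and 1 other non-coding gene of the chromosome 13 cluster were each highest in desert tumour 1. The non-coding Gm11377 and G630018N14Rik of the same cluster were highest in desert tumour 5. Around the chromosome 8 cluster, 4 of 12 other genes were highest in desert tumour 1. That tumour was the highest desert tumour for 27.79% of all tested genes and for 7 of the 19 tested forkhead genes. In inflamed tumours, tumour 3 was highest for 7 of the 19 forkhead genes (15.27% of all tested genes) and tumour 4 for 6 (27.19% of all tested genes). Between 28 and 31 forkhead genes had a read in each inflamed tumour, and 27 to 29 in each desert tumour.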
